A study of Mus musculus with 10 samples.

Results

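The genes described here are 10 mouse genes of the ATF4 amino acid stress response, Atf4, Ddit3, Trib3, Asns, Phgdh, Psat1, Slc1a4, Slc7a11, Chac1 and Sesn2, out of 22713 gene IDs in the mRNA-sequencing tables. They were taken as a fixed list of symbols, each of which matched 1 Ensembl ID. The list was drawn up with measured values in view, since Chac1 and Slc1a4 were chosen by their large falls in log2-fold-change after linc1253 knockdown. The values of all 10 in the knockdown comparison are therefore given as a description, with no test. The other gene lists of the pathway were also chosen with earlier results of these data known.

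The study asked how the ATPase Pontin, the transcription factor Oct4 and the long intergenic noncoding RNA linc1253 act on gene expression in mouse embryonic stem (ES) cells. In Pontinf/f; CreER ES cells, which carry floxed Pontin alleles and a Cre recombinase that 4-hydroxy tamoxifen (OHT) switches on, 1 untreated library (WT) was compared with 1 library after 3 days (OHT 3D) and 1 after 4 days of OHT (OHT 4D). An OHT-treated line without floxed alleles was not analysed here, so that OHT and Pontin loss cannot be told apart. Oct4-depleted cells are ZHBTc4 ES cells, a line in which tetracycline shuts off Oct4, after 2 days of tetracycline (Tc 2D, 1 library). They were compared with the same WT library, which comes from another line, so that line and Oct4 depletion cannot be told apart. For linc1253 knockdown, ZHBTc4 cells were infected with pLKO lentivirus carrying a control shRNA or shlinc1253 and collected 4 days later, with 2 libraries each. The shRNA was a single hairpin, and the replicate libraries are not stated to be separate cultures. Chromatin immunoprecipitation sequencing (ChIP-seq) of untreated ZHBTc4 cells gave 1 library with an antibody to Pontin and 1 with an antibody to GFP as control. ES cells in the study were grown either on mouse embryonic fibroblast feeders or without them, and which applied to each library is not given in the sources used here.

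ATF4 is a transcription factor that is made in larger amounts when kinases phosphorylate the initiation factor eIF2, for example when amino acids run short or when unfolded protein builds up in the endoplasmic reticulum. It switches on genes for amino acid uptake, for the synthesis of serine and asparagine and for the charging of tRNAs, together with regulators that tune the response. Because ATF4 is set largely at translation, the level of its mRNA is not a measure of its protein. ES cells divide fast and draw heavily on serine and one-carbon metabolism.

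The targeted genes followed the labels where they could be checked. Pontin mRNA, listed as Ruvbl1, had normalised read counts (CPM) of 198 without OHT and of 33.3 and 50.9 after 3 and 4 days of it. It was also low at Tc 2D, at 85.0 CPM, against 148 to 188 CPM in the shRNA libraries. Oct4 mRNA, listed as Pou5f1, had 21.1 CPM at Tc 2D and between 296 and 708 CPM in the other libraries, and linc1253 itself was not analysed here. Reads on genes ranged from 17187595 to 37951742 per library. All 8 ES cell markers examined were above 1 CPM in every library, with a summed level of 442 CPM at Tc 2D and between 3038 and 6235 CPM elsewhere.

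ATF4 with a partner binds composite elements whose core reads TGATGNAA, where N is any base. The promoter windows that RefSeq gives around gene starts (build GRCm38.p6, 250 bases before to 50 after the start) were searched on both strands for this core. It was found in 3.97% of 32841 windows and at 5 of the 10 members, Chac1, Trib3, Slc7a11, Asns and Slc1a4. The stricter form TGATGCAA, which is contained in the core, was found in 0.895% of windows and at 3 members, Chac1, Slc7a11 and Slc1a4. The matches are shown 5′ to 3′ on the strand of the gene, with the matched core in capitals, because they are what these promoters share in sequence.
Chac1, chr2:119351038-119351067, plus strand: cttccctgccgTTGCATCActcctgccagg
Slc1a4, chr11:20332699-20332728, minus strand: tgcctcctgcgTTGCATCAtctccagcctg
Slc7a11, chr3:50443644-50443685, minus strand: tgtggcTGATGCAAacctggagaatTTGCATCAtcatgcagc
Asns, chr6:7693214-7693243, minus strand: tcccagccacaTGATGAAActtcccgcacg
Trib3, chr2:152344028-152344057, minus strand: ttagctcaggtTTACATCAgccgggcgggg

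Counted from the gene start, the match of Chac1 begins at base -193, that of Asns at -23, that of Slc1a4 at -4 and that of Trib3 at 15, past the start. Slc7a11 has 2 matches in opposite orientation, at -66 and -47. The 8 letters TTGCATCA were shared by Chac1 and Slc1a4, the members with the largest falls after linc1253 knockdown, and by Slc7a11, which had no fall there. The cyclic AMP response element TGACGTCA and the endoplasmic reticulum stress element (CCAAT, 9 bases of any kind, CCACG), the latter bound in the other arms of the unfolded protein response, were found in 1.79% and 0.119% of windows and at 0 members. Among the other gene lists of the pathway, the core TGATGNAA was found at 5 of 12 ATF4-linked regulators with a window and 5 of 13 cytosolic aminoacyl-tRNA synthetases, at 2 of 13 enzymes of serine, glycine, one-carbon, proline and transsulfuration metabolism, and at 0 of 9 amino acid transporters, 0 of 7 eIF2 kinases and phosphatase subunits, 0 of 5 glutathione genes and 0 of 11 chaperones of the endoplasmic reticulum. A match of letters is a description of the sequence and not a binding site. Sequence outside the windows was not searched, so that a gene without a match may still have such an element elsewhere. The stretch of 250 bases before the start of Chac1 (chr2:119350992-119351241, plus strand) is given whole, since this gene had the largest fall of the 10 after linc1253 knockdown.
Chac1 upstream: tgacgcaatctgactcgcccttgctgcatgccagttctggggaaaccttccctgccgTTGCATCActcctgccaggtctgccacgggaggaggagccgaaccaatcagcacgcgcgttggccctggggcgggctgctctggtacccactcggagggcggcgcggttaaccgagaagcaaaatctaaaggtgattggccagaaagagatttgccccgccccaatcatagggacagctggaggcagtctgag

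All 10 members were transcribed in these cells, over a wide range of levels. Levels between genes were compared as CPM per kilobase of annotated exon. In WT this level was highest for Atf4 (161), followed by Asns (128), Psat1 (107) and Phgdh (99.0). Sesn2 (41.7), Trib3 (19.8), Chac1 (13.2), Slc1a4 (12.4) and Ddit3 (10.6) came next. Slc7a11 was far below the others, at 0.0835. The 3 biosynthetic enzymes thus stood next to Atf4 at the top of the order. In the control shRNA libraries, where 2 values are available per gene, the order was the same. There, Trib3 (15.9 and 13.3) overlapped with Chac1 (14.0 and 11.2), and Chac1 overlapped with Slc1a4 (11.7 and 9.40), so that the order of these neighbours is within the spread of the libraries. Ddit3 shares bases with the tRNA synthetase gene Mars on the opposite strand, and Psat1 and Sesn2 with a pseudogene and a processed transcript. The library kit is not stated to keep strand, and reads in such shared bases cannot be told apart.

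**Figure D1:**
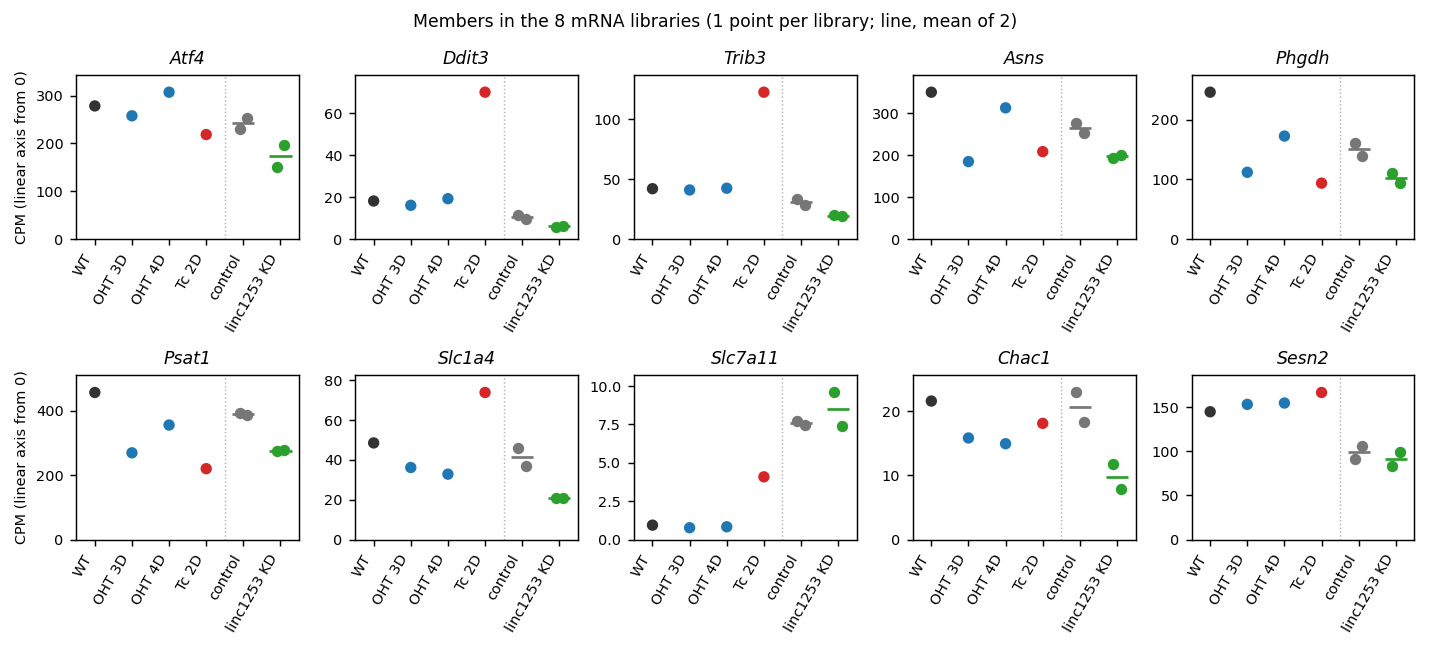
Level of each of the 10 genes in CPM (y axis, linear and starting at 0) in the 8 mRNA libraries (x axis), 1 point per library, with a line at the mean of 2 libraries for control shRNA and linc1253 knockdown. The dotted line separates the tables that were normalized separately. Ddit3 reached 70.0 CPM and Trib3 122 CPM at Tc 2D, above every other library, while Phgdh was at its lowest there, at 93.8 CPM.

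Pontin depletion was accompanied by lower mRNA of the serine and asparagine synthesis enzymes after 3 days of OHT, and these levels were higher in the library of day 4. Phgdh (ENSMUSG00000053398, chr3:98117093-98143913, NCBIM37), the first enzyme of serine synthesis, had 246 CPM in WT, against 112 CPM after 3 days of OHT and 173 after 4. Asns (ENSMUSG00000029752, chr6:7625169-7643254), which makes asparagine from aspartate, had 350.3, 185 and 313 CPM in the same order. Psat1 (ENSMUSG00000024640, chr19:15979168-16021827), the aminotransferase that follows Phgdh in serine synthesis, had 456, 269 and 355 CPM. In all 3 genes the OHT 3D library was the lowest of these libraries and OHT 4D lay between it and WT. Pontin mRNA had the same order, with 33.3 CPM at OHT 3D, 50.9 at OHT 4D and 198 in WT. The part of this difference in depletion in the enzyme levels was not tested.

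A log2-fold-change was computed after adding 1 to the CPM, and an absolute value above 0.58 was taken as a call. The comparisons with WT have 1 library per condition and no replicate check, so the 95% intervals given with them cover the counting of reads alone. At OHT 3D, Phgdh fell by 1.13, Asns by 0.92 and Psat1 by 0.76 on the log2 scale. With these, 3 of the 10 members fell past the threshold and 0 rose, where 5.88% of 13449 genes fell and 6.01% rose. Of all genes tested, 66 had a lower log2-fold-change than Phgdh, 181 than Asns and 372 than Psat1. At OHT 4D, 0 members fell and 0 rose, where 8.89% of genes fell and 6.48% rose, and the log2-fold-changes were -0.51 for Phgdh, -0.16 for Asns and -0.36 for Psat1. Between the OHT libraries, Asns was higher at OHT 4D than at OHT 3D by a log2 CPM ratio of 0.76 (0.70 to 0.82), Phgdh by 0.62 (0.55 to 0.70) and Psat1 by 0.40 (0.35 to 0.45). These intervals exclude 0, but 1 library per day cannot show how far replicate libraries would differ.

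The gene for the transporter of neutral amino acids and the gene for the glutathione-degrading enzyme were lower in both OHT libraries, without passing the threshold. Slc1a4 (ENSMUSG00000020142, chr11:20202183-20232716), which carries serine, alanine and threonine, had 48.5 CPM before OHT, 36.2 after 3 days and 32.9 after 4, with log2-fold-changes of -0.41 and -0.55. Chac1 (ENSMUSG00000027313, chr2:119176965-119180117), a gamma-glutamyl cyclotransferase that breaks down glutathione, had 21.6, 15.8 and 14.9 CPM, with log2-fold-changes of -0.42 and -0.50. For both genes the difference between the OHT libraries was within the counting interval, -0.29 to 0.01 for Slc1a4 and -0.30 to 0.14 for Chac1 as log2 CPM ratios. Unlike the enzymes, these 2 genes were not higher at OHT 4D than at OHT 3D.

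The regulators stayed near their WT levels. Atf4 (ENSMUSG00000042406, chr15:80085614-80087970) had 278 CPM before OHT, 258 after 3 days and 307 after 4 (-0.11 and 0.14). Ddit3 (ENSMUSG00000025408, chr10:126727830-126733344), which encodes the transcription factor CHOP, had 18.2, 16.2 and 19.3 CPM. Trib3 (ENSMUSG00000032715, chr2:152163158-152169768), a pseudokinase that restrains ATF4 and Akt signalling, had 42.1, 41.0 and 42.4 CPM. Sesn2 (ENSMUSG00000028893, chr4:132047947-132066416), a leucine sensor that holds back mTORC1, had 145, 153 and 155 CPM. Among these 4 genes the largest difference from WT in either library was that of Ddit3 at OHT 3D, with a log2-fold-change of -0.16. Slc7a11 (ENSMUSG00000027737, chr3:50168858-50247535), the cystine and glutamate exchanger, rested on 21, 17 and 19 reads, and no difference was detectable at this depth.

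The median log2-fold-change of the 10 members was -0.29 at OHT 3D and -0.12 at OHT 4D, where that of all genes was -0.02 and -0.00. Markers of other cells differed between the same libraries. Of 15 fibroblast markers, 9 were above 1 CPM in WT with a summed level of 76.3 CPM, against 13 with 524 CPM at OHT 3D and 13 with 635 CPM at OHT 4D, and Lum was at 0 in WT and at OHT 3D. Primitive endoderm markers summed to 59.5 CPM in WT and to 89.6 and 107 CPM on the OHT days, and trophectoderm markers to 238, 234 and 407 CPM. The summed ES cell markers were 3152, 3038 and 3348 CPM. The part of these markers in the values of the members was not tested. In bulk RNA, fewer cells of a type and less RNA per cell cannot be told apart.

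Among the other genes of the pathway, those of serine, glycine, one-carbon and proline metabolism were also mostly lower after Pontin depletion. On day 3, 4 of the 15 enzymes listed fell past the threshold, where 5.88% of all genes did, 0 rose, and 14 of 15 had a log2-fold-change below 0, with a median of -0.46. Aldh1l2, a mitochondrial folate enzyme, went from 15.5 to 5.29 CPM with a log2-fold-change of -1.39. Pycr1, which completes proline synthesis, went from 58.5 to 23.1 CPM (-1.31). Psph, the last enzyme of serine synthesis, and Mthfd1l, of mitochondrial one-carbon metabolism, fell by 0.88 and 0.63 on the log2 scale. At OHT 4D, 5 of the 15 fell, where 8.89% of all genes did, and 0 rose, with a median of -0.39, namely Aldh1l2 (-1.42), Pycr1 (-0.82), the alanine aminotransferase gene Gpt2 (-0.80), the glycine decarboxylase gene Gldc (-0.63) and Mthfd1l (-0.59).

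The ATF4-linked regulators held falls on both days. Of 13 listed, 12 passed the filter of a CPM above 1 in at least 1 library, and 3 of these fell past the threshold at OHT 3D and 0 rose, against the same 5.88% of all genes. They were Stc2, a secreted glycoprotein, which went from 38.4 to 16.6 CPM (-1.16), Vldlr, a lipoprotein receptor (-1.13), and Ddit4, an inhibitor of mTORC1 (-0.93). The same 3 genes fell at OHT 4D, with Stc2 at -1.20, Vldlr at -1.43 and Ddit4 at -0.70, and Atf3, a transcription factor of the response, rose by 0.76. Of all genes, 8.89% fell and 6.48% rose at OHT 4D. Since both OHT libraries are set against the same WT library, their falls are not independent of each other.

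In the remaining lists few genes passed the threshold in the OHT libraries, and their counts have to be read against the shares of all genes, of which 5.88% fell and 6.01% rose at OHT 3D and 8.89% fell and 6.48% rose at OHT 4D. Of 20 cytosolic aminoacyl-tRNA synthetases, 1 fell at OHT 3D, the seryl-tRNA synthetase gene Sars (-0.74), and 18 of 20 were below 0 with a median of -0.25. At OHT 4D, 0 of the 20 passed the threshold and the median was -0.14. Of 13 amino acid transporters, 1 fell on each day, the glutamine transporter gene Slc1a5 (-0.69) at OHT 3D and the glycine transporter gene Slc6a9 (-0.82) at OHT 4D. Of 8 glutathione genes, Nqo1, a quinone reductase and target of NRF2, rose from 35.3 to 62.0 CPM at OHT 3D (0.79), and 0 passed the threshold at OHT 4D. Of the 8 eIF2 kinases and phosphatase subunits, 0 passed at OHT 3D and Eif2ak4, the kinase that senses uncharged tRNA, fell at OHT 4D (-0.67). The list of 12 endoplasmic reticulum chaperones, so called for short, also holds genes of other kinds, such as Sel1l and the transcription factor gene Xbp1. Of these 12 genes, 0 passed the threshold on either day.

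In the Tc 2D library some members were higher and some lower than in WT, in numbers near the shares of all genes that rose and fell. Ddit3 had 70.0 CPM at Tc 2D against 18.2 in WT, a log2-fold-change of 1.89. Trib3 had 122 CPM against 42.1, a log2-fold-change of 1.52. Slc1a4 had 73.9 CPM against 48.5, a log2-fold-change of 0.60. Slc7a11 had 4.09 CPM against 0.939, on 116 and 21 reads, and it passed the filter on low values only through the Tc 2D library. Ddit3, Trib3 and Slc1a4 rose past the threshold, where 23.9% of genes rose, although Slc1a4 was at 0.577, short of it, with a pseudocount of 3. Slc7a11, with a log2-fold-change of 1.39, is kept out of this count, since a gene that passed the filter through 1 library had to be high there. Phgdh had 93.8 CPM at Tc 2D and a log2-fold-change of -1.38, Psat1 219.8 CPM and -1.05, and Asns 209 CPM and -0.74. These 3 of the 10 fell, where 25.8% of genes fell. Atf4 itself had 219 CPM against 278 (-0.35), Chac1 18.1 against 21.6 (-0.24) and Sesn2 167 against 145 (0.20), none past the threshold. The median over the 9 members other than Slc7a11 was -0.24, where that of all genes was -0.06. The counts of members, 3 of 10 each way, are close to these shares and are not a result about the members.

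The ZHBTc4 libraries with control shRNA come from the same line as the Tc 2D library, although they were infected and stand in a table normalized separately. Per the paper they were also sequenced on another model of instrument. Infection, instrument and normalization cannot be told apart from Oct4 depletion in this comparison. Against their mean, Ddit3 was higher at Tc 2D by a log2-fold-change of 2.61, Trib3 by 1.95 and Slc1a4 by 0.83, and Sesn2, at 0.75, passed the threshold as well. Psat1 and Phgdh fell by 0.82 and 0.68. Asns, with -0.34, no longer passed the threshold. Slc7a11 turned direction, with a log2-fold-change of -0.75, as its mean level was 7.57 CPM in the control shRNA libraries and its level 0.939 CPM in WT. In this comparison 18.5% of genes rose and 28.5% fell, and the median log2-fold-change of all genes was -0.14. The distance of Phgdh from the threshold was smaller than this offset. The Tc 2D library also held lower ES cell markers, 442 CPM summed over the 8 genes against 3152 in WT, and trophectoderm markers of 505 CPM against 238 in WT, with 7 of 8 above 1 CPM and 0 at zero. Primitive endoderm markers summed to 104 CPM against 59.5 in WT, with 5 of 8 above 1 CPM in each. Fibroblast markers summed to 158 CPM, with Acta2, Postn, Lum, Dcn and S100a4 at 0. In the control shRNA libraries trophectoderm markers summed to 107 and 106 CPM and ES cell markers to 6235 and 5531 CPM. Primitive endoderm markers summed there to 107 and 118 CPM and fibroblast markers to 274 and 226 CPM, so that neither sum was higher at Tc 2D. The part of these cell type markers in the values of the members was not tested.

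**Figure D2:**
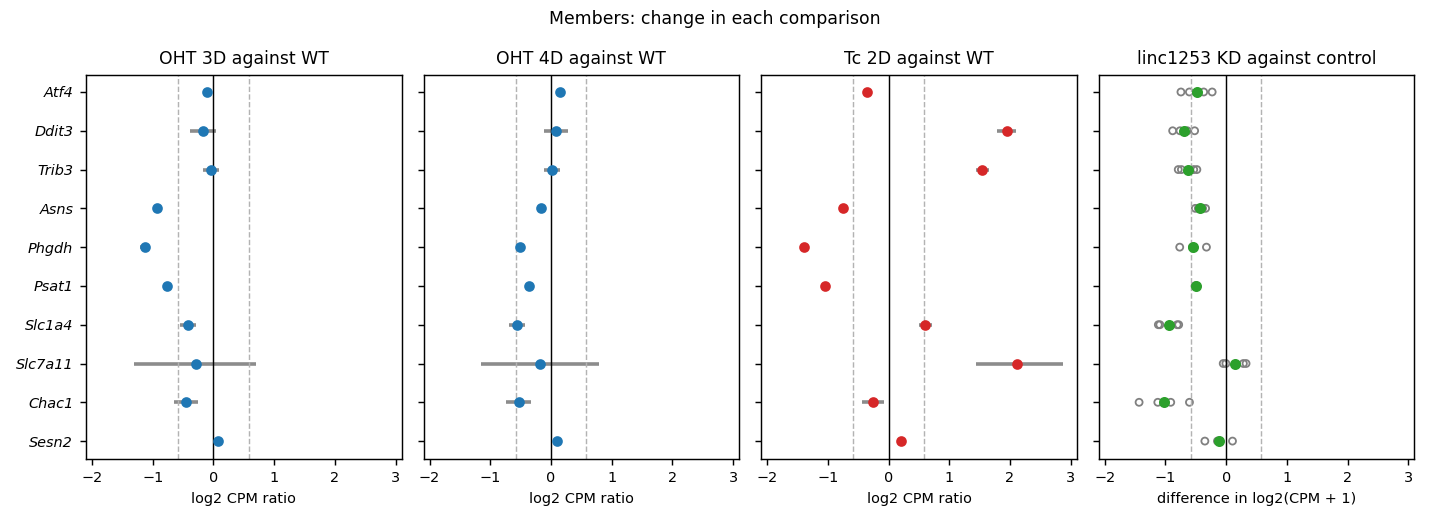
Change of each of the 10 genes (rows) in the 4 comparisons (panels), with dashed lines at the threshold of 0.58. In the OHT and Tc panels the point is the log2 CPM ratio and the bar its 95% counting interval, and in the linc1253 panel the filled point is the difference of mean log2(CPM + 1) and the open points are the 4 pairs of libraries. Phgdh, Asns and Psat1 lie left of the threshold at OHT 3D and Tc 2D. Ddit3 and Trib3 lie near 0 in both OHT panels and right of the threshold at Tc 2D. After linc1253 knockdown all 4 pairs lie left of 0 for 8 genes, as they do for 19.2% of all genes.

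At Tc 2D the other genes of amino acid metabolism are given against the 23.9% of all genes that rose and the 25.8% that fell, and differences between the lists were not tested. Of the 15 enzymes of serine, glycine, one-carbon, proline and transsulfuration metabolism, 8 fell past the threshold and 0 rose, and 15 of 15 were below 0 with a median log2-fold-change of -0.71. Cth, which makes cysteine from cystathionine, went from 145 CPM in WT to 32.0 (-2.15). Of the 20 synthetases, 8 fell and 0 rose, and 20 of 20 were below 0 with a median of -0.56. Of the 13 amino acid transporters, 6 fell and 5 rose, the latter being Slc36a4, Slc1a1, Slc6a9, Slc7a1 and Slc7a6. Slc7a3, a transporter of arginine and lysine, went from 172 to 15.9 CPM (-3.36), and Slc36a4, which carries proline and tryptophan, from 1.97 to 14.3 CPM (2.37). The glycine transporter gene Slc6a9 rose from 5.01 to 13.2 CPM (1.24). Of the glutathione genes, Gss, which makes glutathione, rose from 11.6 to 35.5 CPM (1.54) and Gsr, which reduces it, fell from 147 to 38.3 CPM (-1.92). Of the ATF4-linked regulators, 4 fell, namely Nupr1 (-1.38), Stc2 (-0.996), Ddit4 (-0.82) and Atf5 (-0.70), and 2 rose, Vldlr (0.74) and the transcription factor gene Cebpb (0.70). Of the 12 genes in the chaperone list, Sel1l (1.02), Dnajc3 (1.01) and Dnajb9 (0.67) rose and Hsp90b1 (-0.62) fell. Of the 8 eIF2 kinases and phosphatase subunits, the adaptor gene Nck1 rose (0.65) and Eif2s1, which encodes the alpha subunit of eIF2 itself, fell (-0.90). The pattern depended in part on the control. Against the ZHBTc4 control shRNA libraries 18.5% of all genes rose and 28.5% fell, with a median of -0.14. Calls closer to the threshold than this offset, such as the falls of Slc43a1, Slc38a2 and Ppp1r15b given below, depend on it. Against the mean of the ZHBTc4 control shRNA libraries, a comparison added after the data were seen, Nupr1 (0.37), Stc2 (0.33) and Atf5 (0.46) lay above 0 and Ddit4 at -0.02, so that none of the 4 regulators was lower past the threshold, while Cebpb (1.81) and Vldlr (1.39) still rose. With Gdf15 (0.87), which rose, and Eif4ebp1 (-0.76), which fell, 3 of the 12 regulators rose and 1 fell there. Of the transporters, 2 rose, Slc36a4 (0.95) and Slc6a9 (1.88), and 4 fell, Slc7a3 (-3.64), Slc7a5 (-1.002), Slc43a1 (-0.66) and Slc38a2 (-0.63). Slc1a1 had 5.25 CPM at Tc 2D, 6.92 and 5.38 in these controls and 0.76 in WT, and it passed the filter on low values without the WT library. Of the enzymes, 10 of 15 were below 0, where 15 of 15 were against WT, and 9 fell past the threshold. Of the synthetases, 18 of 20 were below 0 and 11 fell past it. The genes that fell were in part others than against WT. The enzyme gene Aldh1l2 (0.89) rose past the threshold, and Pycr1 turned from -0.71 to 0.21. Cth (-2.24), Gss (0.69) and Gsr (-1.07) kept their direction and side of the threshold. The same holds for Sel1l, Dnajc3, Dnajb9, Hsp90b1 and Eif2s1, whereas Nck1 (0.42) no longer passed and Ppp1r15b (-0.63), a phosphatase subunit, fell past the threshold. The glutathione gene Gclc (0.65) rose past it, and the chaperone genes Calr (-0.98) and Sdf2l1 (-0.77) fell.

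In linc1253 knockdown cells Chac1 and Slc1a4 had the largest falls of the 10 members, which follows from how the list was drawn up. Chac1 had 22.9 and 18.3 CPM in the control libraries and 11.7 and 7.85 in the knockdown libraries, or 20.6 ± 3.26 against 9.77 ± 2.72 (SD, n = 2 each). Slc1a4 had 46.0 and 36.9 CPM against 21.0 and 20.7, or 41.4 ± 6.43 against 20.8 ± 0.267 (SD, n = 2 each). For both genes the ratio of the mean CPM, knockdown over control, was near 0.5 (0.474 for Chac1 and 0.503 for Slc1a4). Both knockdown libraries were below both controls, as they were for 19.2% of all genes. The log2-fold-change was -1.02 for Chac1 and -0.95 for Slc1a4. Of 13407 genes tested, 2 had a lower value than Chac1 and 3 than Slc1a4, which is the property for which they were listed.

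The regulators Ddit3 and Trib3 also lay past the threshold. Ddit3 had 11.6 and 9.68 CPM in the controls and 5.85 and 6.45 in the knockdown, a log2-fold-change of -0.70. Trib3 had 33.9 and 28.2 CPM against 19.9 and 19.2, a log2-fold-change of -0.64. With Chac1 and Slc1a4, 4 of the 10 members were past the threshold on the lower side and 0 on the higher side, where 0.567% of all genes were lower and 0.82% higher. Without control replicate 1 there were 3, since Trib3 was then at -0.51, and Ddit3 was at -0.58, next to the threshold. With a pseudocount of 3, Ddit3 was at -0.575, short of it.

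Atf4 and the enzymes were lower by a smaller amount. Atf4 had 230.3 and 254 CPM in the controls and 151 and 196 in the knockdown, a log2-fold-change of -0.49, and its knockdown libraries differed from each other by 0.37 on the log2 scale. Phgdh had 162 and 139.9 CPM against 111 and 94.8 (-0.55). Psat1 had 392 and 387 CPM against 274.5 and 277 (-0.50), with a spread of 0.02 between the controls and of 0.01 between the knockdown libraries. Asns had 276 and 254 CPM against 194 and 201 (-0.42). Psat1 was the most even of the 10. In all 4 of these genes both knockdown libraries were below both controls, as they were for 19.2% of all genes.

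Sesn2 and Slc7a11 stood apart from the rest. Sesn2 had 91.8 and 106 CPM in the controls and 83.0 and 98.7 in the knockdown (-0.12), and the groups overlapped. Slc7a11 had 7.70 and 7.44 CPM against 9.59 and 7.41 (0.14), and the groups overlapped as well. Thus 8 of the 10 members had both knockdown libraries below both controls, where 19.2% of all genes did, and 0 had both above, where 18.8% did. The median over the members was -0.52, where that of all genes was -0.00. This count follows in part from how the list was drawn up and is not read as a result about the members. Fibroblast markers overlapped between the groups, summing to 274 and 226 CPM in the controls and 261 and 289 CPM in the knockdown, and so did primitive endoderm markers, with 107 and 118 against 92.5 and 133 CPM. Of the 15 fibroblast markers, 6 and 10 were above 1 CPM in the controls and 7 and 13 in the knockdown. Their medians were 0.738 and 2.24 CPM against 0.876 and 7.54 CPM. By count and median, though not by sum in the controls, these markers were thus higher in replicate 2 of both groups. ES cell markers summed to between 5531 and 6235 CPM in these 4 libraries. Trophectoderm markers did not overlap, summing to 107 and 106 CPM in the controls and 76.9 and 77.9 CPM in the knockdown, and their part in the values of the members was not tested. Knockdown replicate 1 was the deepest library, with 37951742 reads on genes against 21245831 to 23601776 in the other 3.

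For the other genes of the pathway, limma was fitted with all 13407 genes. At an adjusted p below 0.05 it called 0 genes, with 503 lower (3.75%) and 496 higher (3.7%) at an unadjusted p below 0.05. The quasi-likelihood test of edgeR on recovered reads also called 0, and DESeq2 called 28 lower and 22 higher. The smallest adjusted p over the lists was 0.469. Without a replicate block, limma with all 4 libraries called no gene of the lists changed. DESeq2 called 3 of them lower, Ddit4, Aldh18a1 and Gpt2, and limma called Ddit4 alone when control replicate 2 was left out. With the replicate number as a block, limma called 933 of the 13407 genes higher and 1027 lower. Among the lower were 11 of 15 enzymes and 10 of 20 synthetases, with 0 higher, and 7 of 12 regulators, with 1 higher. Of the 12 chaperones it called 1 lower and 4 higher. Whether same-numbered libraries are pairs is not stated, and the calls depend on it. The values that follow are given for their size. Since the lists were chosen with earlier results of these data known, counts above the shares of all genes are a description and not independent support.

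The enzymes and synthetases lay mostly on the lower side, each by less than the threshold. Of all genes, 19.2% had both knockdown libraries below both controls and 18.8% had both above. By limma, 3.75% of all genes were lower at an unadjusted p below 0.05. Of the 15 enzymes, 13 had both libraries below and 0 had both above, 10 were lower at this p, and the median was -0.33. Of the 20 synthetases, 15 had both libraries below and 0 above, 8 were lower at an unadjusted p below 0.05, and the median was -0.18. Of the ATF4-linked regulators, 4 of 12 were past the threshold on the lower side and 0 on the higher side. Of all genes, 0.567% were past it on the lower and 0.82% on the higher side. Ddit4 had 126 and 98.2 CPM in the controls and 58.7 and 63.2 in the knockdown, with a log2-fold-change of -0.86 ± 0.14 (SE) and an adjusted p of 0.469 by limma. Stc2 had 15.2 and 14.2 CPM against 9.43 and 8.11 (-0.69 ± 0.13, adjusted p of 0.485 by limma). Nupr1, a small stress-induced chromatin protein, had 9.50 and 12.1 CPM against 3.89 and 8.90 (-0.75 ± 0.33, adjusted p of 0.676 by limma). The other was Atf3, with 2.68 and 2.84 CPM against 1.11 and 1.62 (-0.68).

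The other lists lay on both sides of 0. Their counts stand against 19.2% of all genes with both knockdown libraries below both controls and 18.8% with both above. At an unadjusted p below 0.05 by limma, 3.75% of all genes were lower and 3.7% higher. Of the 12 chaperones of the endoplasmic reticulum, which belong to the other arms of the unfolded protein response, 7 had both knockdown libraries above both controls and 1 had both below, with a median of 0.14. Of the 8 glutathione genes 0 had both libraries below or above, and their median was -0.02. The 13 amino acid transporters had a median of 0.02, with 5 below and 3 above. At an unadjusted p below 0.05, 4 of them were lower (Slc7a5, Slc1a5, Slc3a2 and Slc7a1, with log2-fold-changes from -0.42 to -0.26) and 1 was higher (Slc7a6, 0.26). The glutathione genes had 0 at this p, and the chaperones 1 lower and 1 higher. The 8 eIF2 kinases and phosphatase subunits had 1 lower at this p and a median of -0.08, with 3 below and 2 above. Whether the lists differ from each other was not tested.

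**Figure D3:**
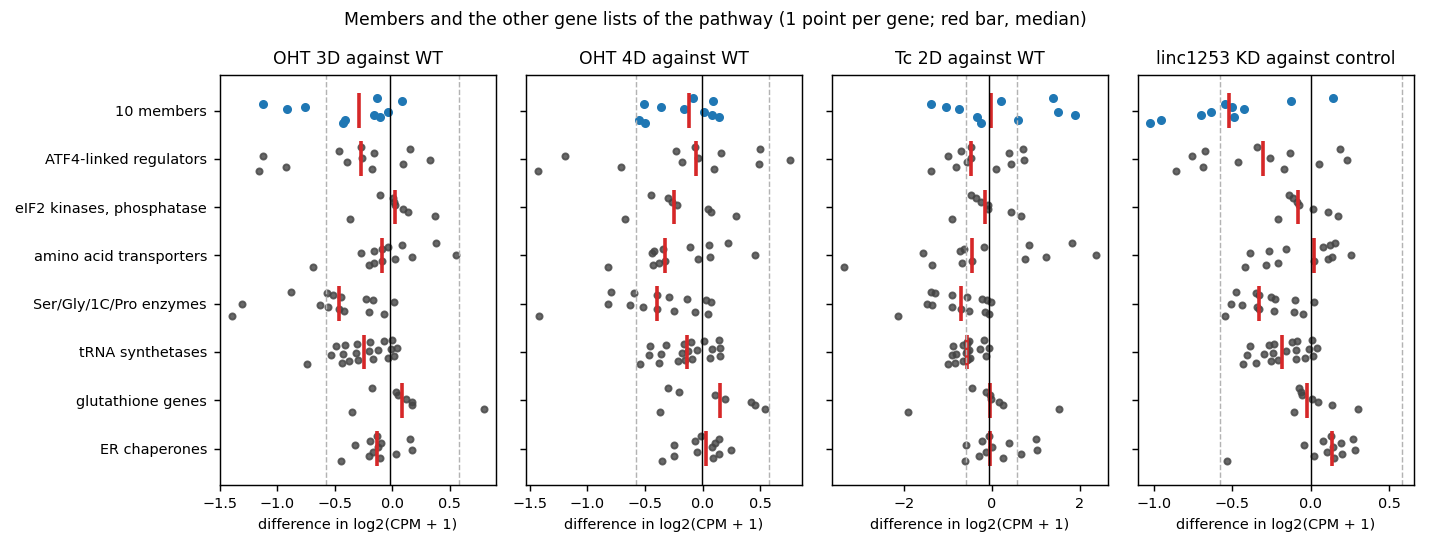
Log2-fold-change of every gene (x axis, difference in log2(CPM + 1)) in the 10 members and the other gene lists of the pathway (rows) for the 4 comparisons (panels, each with its own scale), 1 point per gene, a red bar at the median of each list, a solid line at the median of all genes and dashed lines at the threshold of 0.58. After linc1253 knockdown the medians lie at -0.52 for the members, -0.33 for the enzymes and 0.14 for the chaperones.

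ChIP-seq gave a readout that the choice of members did not use. The window of a promoter ran from 2.5 kb before to 500 b past its start site. Its reads were scaled by library size, 40729076 reads for Pontin and 17185883 for GFP, and expressed as a log2 ratio with a 95% counting interval. With 1 library each, no replicate check is possible. The Pontin ratio was not uniform over the members. Ddit3 had 81 Pontin and 16 GFP reads, a log2 ratio of 1.10 (0.31 to 1.97). Phgdh had 90 and 18 reads, a log2 ratio of 1.08 (0.34 to 1.90). Atf4 had 97 and 22 reads, a log2 ratio of 0.90 (0.22 to 1.63). The intervals of these 3 genes lay above 0, but each of them held the median of all promoters, 0.34, that of Phgdh narrowly (0.336 against 0.340). The ratios were above those of 88.1% (Ddit3), 87.3% (Phgdh) and 81.3% (Atf4) of promoters. With so few GFP reads the intervals neither set the 3 genes apart from that median nor show that their promoters are ordinary. Ddit3 and Phgdh were past a log2 ratio of 1. That is 2 of 10, where 14.8% of 21178 promoters and 17.4% of those of expressed genes were past 1. Asns (0.41), Sesn2 (0.33) and Psat1 (0.12) were closer to that median. Trib3 had 119 and 56 reads and a log2 ratio of -0.16, with an interval (-0.63 to 0.33) that lay below this median. Chac1 (-0.19), Slc7a11 (-0.21) and Slc1a4 (-0.27) were below it as well, with intervals that held it. Against the median of expressed genes, 0.45, the intervals of Chac1 (upper bound 0.38) and Slc1a4 (0.36) also lay below. The median of the members was 0.22.

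The few GFP reads and the window limit these ratios. With windows of 1 kb on either side of the start, where 26.3% of promoters were past 1 and the median was 0.53, Chac1 had 62 Pontin and 7 GFP reads, a log2 ratio of 1.90 (0.77 to 3.27) in place of -0.19. In the same windows Atf4 reached 1.55 (0.66 to 2.55), whereas Ddit3 had 0.31 (-0.60 to 1.30). The intervals of Chac1 and Atf4 thus lay above the median in these windows, and that of Trib3 (-1.13 to -0.05) below it. When 1 read was kept per position and strand, Atf4 had 0.99, Phgdh 0.94 and Ddit3 0.85. In this setting 0 of 10 were past 1, where 11.8% of promoters were. Trib3 was then at 0.14 (-0.40 to 0.71). Chac1, with 24 GFP reads in place of 41, was at 0.25 (-0.44 to 0.97), and Slc1a4 at -0.42 (-1.04 to 0.22).

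**Figure D4:**
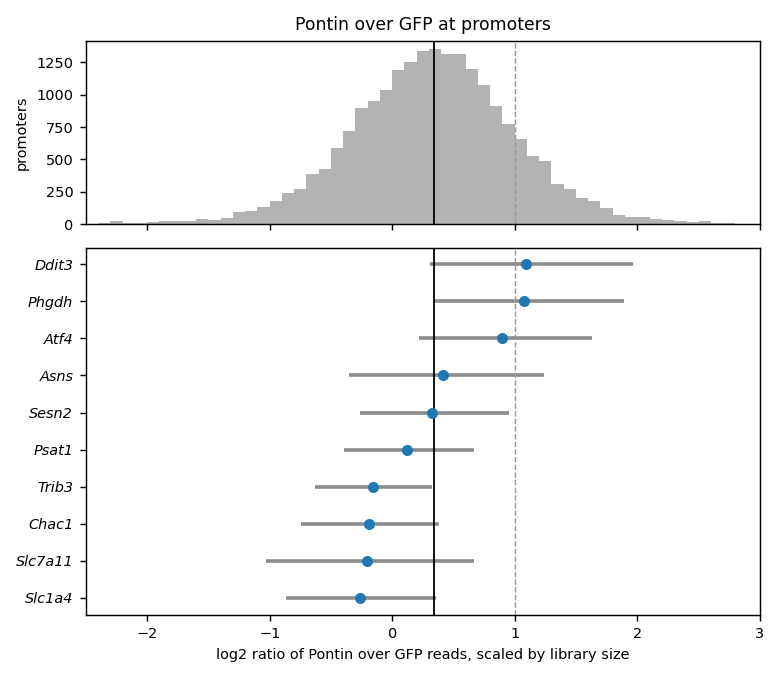
Upper panel, number of promoters (y axis) by log2 ratio of Pontin over GFP reads (x axis, scaled by library size), and lower panel, the 10 genes with their 95% counting intervals. The solid line marks the median of all promoters, 0.34, and the dashed line a log2 ratio of 1, and the intervals of Ddit3, Phgdh and Atf4, the members with the highest ratios, hold this median.

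Across the 8 mRNA libraries, with log2(CPM + 1) of each gene centred within its table, the members did not follow 1 profile. Ddit3 and Trib3 moved together with a Pearson r of 0.99. Psat1 and Phgdh had 0.98, Asns and Phgdh 0.93, and Asns and Psat1 0.92. Between the enzymes and Ddit3 the correlation was weak, with -0.08 for Ddit3 and Asns and -0.32 for Ddit3 and Psat1. In the WT and OHT libraries Ddit3 had 16.2 to 19.3 CPM and Trib3 41.0 to 42.4 CPM, and at Tc 2D they had 70.0 and 122 CPM. The values with Ddit3 thus rest largely on the Tc 2D library, from another line than WT, and on the knockdown contrast that chose members. Chac1 and Slc1a4 had 0.79, a value that rests in part on the knockdown libraries for which they were chosen. The libraries share controls and n is 8, so that these values are descriptive. The mean profile of the members was lowest at OHT 3D, at -0.30, and in the knockdown libraries, at -0.24 and -0.28, where the choice of members set it in part. The ranking of other genes by this profile carries the same limit. Of 9957 genes compared, those closest to this mean profile were Ybx2 (0.967), a germ cell RNA-binding protein, Tesk2 (0.964), Padi2 (0.962), a peptidylarginine deiminase, Rnft2 (0.961) and Kctd13 (0.952). Ybx2 had a log2-fold-change of -0.89 at OHT 3D, 0.26 at Tc 2D and -0.76 after linc1253 knockdown.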

How the data were processed

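Gene expression was measured by poly(A) mRNA sequencing in 8 libraries and Pontin binding by ChIP-seq in 2. The authors trimmed reads (ends under PHRED 20), aligned them to NCBIM37 with TopHat or Bowtie2, counted mRNA reads on genes with HTSeq, and deposited CPM after TMM normalization in edgeR, separately for the 2 tables. The reads behind each CPM could be recovered, since 100% of values were whole multiples of 1 read within 0.01 read. TMM leaves the CPM of a library summing to between 638591 and 1015095. The deposited ChIP-seq files hold 1 line per aligned read, with its mapping quality score. The paper kept only uniquely aligned reads above a limit of this score. No filter on the score was applied here, so that lines with low scores, where present, were counted.

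Symbols were matched for 22337 of 22713 IDs, and the coordinates of genes are those of the NCBIM37 annotation (GENCODE). Genes above 1 CPM in at least 1 library of the table were kept, and log2-fold-changes used a pseudocount of 1. Knockdown was fitted with limma 3.58.1 (trend, two-sided, Benjamini-Hochberg) in R 4.3.3, with edgeR 4.0.16 and DESeq2 1.42.0 on recovered reads as alternatives. Replicates are not stated to be separate cultures, so p-values measure the spread between these libraries, which may be technical. Reads carry no molecular identifiers, and intervals cover counting error only. ChIP reads were assigned by their midpoint. Motifs were sought in RefSeq windows (GRCm38.p6), which all 10 members had. The fits were tested on simulated data. Python 3.11.15 with numpy 2.4.6, pandas 2.3.3 and scipy 1.17.1 was used.

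The members and lists were chosen with earlier results of these data known. Named were the members, the listed genes with a mean of at least 5 CPM that led each comparison past the threshold (up to 3 upward and 3 downward), and the 5 genes closest in profile. Other listed genes, such as Vldlr, Psph and Sars, were named after their values were seen, where a count was small. Alternatives were other pseudocounts, filters, scaling, thresholds, ChIP windows, a replicate block and leaving out each library.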

Additional observations from a re-analysis of the deposited data

Results flagged for a closer look

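Atf4 went in opposite directions on the days of OHT. Its log2-fold-change against WT was -0.11 at OHT 3D (counting interval -0.16 to -0.06 as a log2 CPM ratio) and 0.14 at OHT 4D (0.09 to 0.19), so that each library lay outside the counting error of WT, on opposite sides. The levels were 258 and 307 CPM against 278 CPM in WT. With 1 library per day the difference was not tested, and both values rest on the same WT library.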

How the results depend on the processing

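With a threshold of 1 in place of 0.58, 1 member fell at OHT 3D (Phgdh) in place of 3, and 1 after linc1253 knockdown (Chac1) in place of 4. Against the ZHBTc4 control shRNA libraries, Slc7a11 at Tc 2D reversed to -0.75. In the same comparison, chosen for the lists after seeing the data, 35 of 41 list genes past the threshold kept their direction, and those that did not were Atf5 (0.46), Nupr1 (0.37), Stc2 (0.33), Slc1a1 (-0.18), Slc1a3 (0.14) and Pycr1 (0.21). After linc1253 knockdown limma called 0 genes in either direction, edgeR 0, and DESeq2 22 higher and 28 lower. Leaving out each library gave 0 to 14 genes higher and 0 to 3 lower, with the 14 and the 3 from leaving out knockdown replicate 1, and 1 higher and 2 lower without control replicate 2. In these fits the lone library is assumed to vary like the other group. With the replicate number as a block, limma called 933 higher and 1027 lower. The labels give these libraries only a number in common, and the deviations of same-numbered libraries from their group means correlated at 0.673 with 2 pairs. The count and median of fibroblast markers were also higher in replicate 2 of both groups. Of the lists, the block called 7 regulators lower and 1 higher of 12, 1 and 1 of 8 in the eIF2 list, 4 and 1 of 13 transporters, 11 and 0 of 15 enzymes, 10 and 0 of 20 synthetases, 0 and 1 of 8 glutathione genes, and 1 and 4 of 12 chaperones. Calls of members are not given, since this contrast chose them. At promoters, 0 members were past a log2 ratio of 1 with 1 read per position (11.8% of all promoters) and with scaling by the median ratio (6.27%), against 2 as reported. With at least 50 GFP reads 1 member and 469 promoters were left, of which 0 were past 1, so that the 0 members there say nothing. All other counts of members stayed within 1.5 times, and the single values kept their direction in 49 of 49 alternatives at OHT 3D and at OHT 4D, 58 of 59 at Tc 2D, 89 of 90 after knockdown and 26 of 31 in ChIP-seq. A filter leaves each value as it was, and a pseudocount cannot turn the sign between 1 library and 1 other. At OHT 3D and OHT 4D only the rescaling could have done so. It shifted the median gene by 0.012 and 0.004, so that the 49 of 49 say little about robustness. Of the 5 ChIP-seq changes, those of Psat1 and Sesn2 under median scaling follow from the 0.34 taken off every promoter. Depth limits Slc7a11 in the OHT libraries, with 17 to 21 reads, and the promoter ratios, with 16 to 56 GFP reads per member.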
